A study of Mus musculus with 11 samples.

Results

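Genes of the BCL2 family were compared between CD34+ and CD34- cells taken from the back skin of mice with an active Akt transgene. The members are Bcl2, Bcl2l1, Bcl2l2, Mcl1, Bax, Bak1, Bad, Bid, Bcl2l11 and Bik, and every probe set of the array whose annotation gives exactly 1 gene symbol, that of a member, was taken. This gave 34 probe sets of 9 genes, out of 45101 probe sets in all. No probe set was annotated to Bax alone, so Bax was not analysed here. Of the 34 probe sets, 22 passed the brightness filter described below and were tested, and 12 were too dim and are given by their values only.

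Both groups came from K5-myrAkt(L84) mice, in which the keratin 5 promoter drives a membrane-bound, active form of Akt in basal keratinocytes and the follicle's outer root sheath. Keratinocytes were bound to an antibody against CD34, found on the surface of the stem cells of the mouse hair follicle, and parted with magnetic beads. The CD34+ fraction was measured on 5 arrays and the CD34- fraction on 6, and the cell type label of both groups names hair follicle stem cells. The sources used here give no age, sex or hair cycle stage. They also do not say whether arrays came from separate mice or from pools, so that a p-value reflects only how these samples varied, and that variation may be technical. All cells carry the transgene. Cells without it were not analysed here, so nothing below is an effect of the transgene.

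BCL2 family proteins decide whether a cell under stress keeps or loses the outer membrane of its mitochondria. The survival proteins, encoded by Bcl2, Bcl2l1 (BCL-XL), Bcl2l2 (BCL-W) and Mcl1, hold back the effectors BAX and BAK, which otherwise form pores and release cytochrome c to activate caspases. The BH3-only proteins, here from Bad, Bid, Bcl2l11 (BIM) and Bik, bind to the survival proteins or to the effectors and push towards death. Akt is known to act on this family: it phosphorylates BAD, which is then held by 14-3-3 proteins, and it keeps FoxO transcription factors, which can activate Bcl2l11, out of the nucleus.

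Of these genes, Bcl2l11 and Mcl1 had probe sets that differed between the fractions. The 250 bases before their RefSeq start sites are shown because these are the genes with called probe sets and because Bcl2l11 is a known FoxO target. Bcl2l11 has a pair of starts, with windows at GRCm38.p6 chr2:128125788-128126037 and chr2:128127325-128127574, both on the + strand. Mcl1 has 1, with its window at chr3:95658471-95658720 on the + strand. The second Bcl2l11 window and the Mcl1 window lie inside the annotated spans of their genes (chr2:128126038-128162547 and chr3:95656944-95663179). Capitals mark matches, on either strand, to the FoxO motif GTAAACA, the CCAAT box, the GC box GGGCGG, the TATA box TATAAA and the cyclic AMP response element TGACGTCA. No match overlaps another in these windows.
Bcl2l11 first start: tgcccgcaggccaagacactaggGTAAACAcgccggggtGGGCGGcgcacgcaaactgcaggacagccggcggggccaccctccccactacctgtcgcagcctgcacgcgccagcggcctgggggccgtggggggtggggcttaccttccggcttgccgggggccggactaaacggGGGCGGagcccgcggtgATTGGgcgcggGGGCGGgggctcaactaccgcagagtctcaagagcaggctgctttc
Bcl2l11 second start: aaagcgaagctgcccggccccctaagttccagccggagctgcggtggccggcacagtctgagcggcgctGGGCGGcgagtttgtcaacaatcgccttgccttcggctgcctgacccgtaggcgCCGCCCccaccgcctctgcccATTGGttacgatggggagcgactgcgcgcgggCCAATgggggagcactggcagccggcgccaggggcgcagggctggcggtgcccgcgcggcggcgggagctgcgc
Mcl1: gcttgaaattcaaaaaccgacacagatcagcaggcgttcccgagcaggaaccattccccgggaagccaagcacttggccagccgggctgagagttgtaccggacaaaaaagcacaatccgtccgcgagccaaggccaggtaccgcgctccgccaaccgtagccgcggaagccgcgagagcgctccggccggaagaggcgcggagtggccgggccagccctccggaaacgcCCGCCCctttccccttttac
The first Bcl2l11 window holds 1 FoxO match, 227 to 221 bases before the start, with 3 GC boxes and 1 CCAAT box. The second Bcl2l11 window holds 2 CCAAT boxes and 2 GC boxes, and the Mcl1 window 1 GC box, 20 to 15 bases before the start. Among 32851 windows of the same length, 3.17% hold a FoxO match, 33.8% a CCAAT box, 32.7% a GC box, 12.4% a TATA box and 1.55% the cyclic AMP response element. The GC content was 72.0% and 73.2% in the Bcl2l11 windows and 64.4% in the Mcl1 window, against a median of 52.4% over all windows. These matches describe the letters and show no binding.

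Values are MAS5 signals on the log2 scale, so a difference of 1 is a doubling of signal, and each difference is CD34+ minus CD34-. A level cannot be compared between probe sets, because each has its own probes. Every probe set was fitted by itself with limma, adjusted over the 20967 probe sets that had 1 symbol and were brighter than the dimmest 40%, and called at an adjusted p under 0.05. Of the 22 family probe sets tested, 1 was called higher and 2 were called lower in CD34+ cells, which is 13.6%. Over all probe sets tested, 20.7% were called, 11% higher and 9.77% lower, so calls were no more common in the family than on the array. The same 3 probe sets were those with no overlap between the fractions. Over all probe sets tested 7.2% lay wholly above and 6.2% wholly below in CD34+ cells, 13.4% together. The median difference of the 22 was 0.29, against 0.02 over all probe sets tested. Scaling all arrays to equal medians moved the median over all probe sets tested to -0.46, and 1 family probe set was then called higher and 7 lower, with 42.5% called over the table. At an unadjusted p under 0.05 there were 6 higher and 3 lower, or 40.9%, against 36.8% of all probe sets tested (19.4% higher and 17.4% lower).

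**Figure D1:**
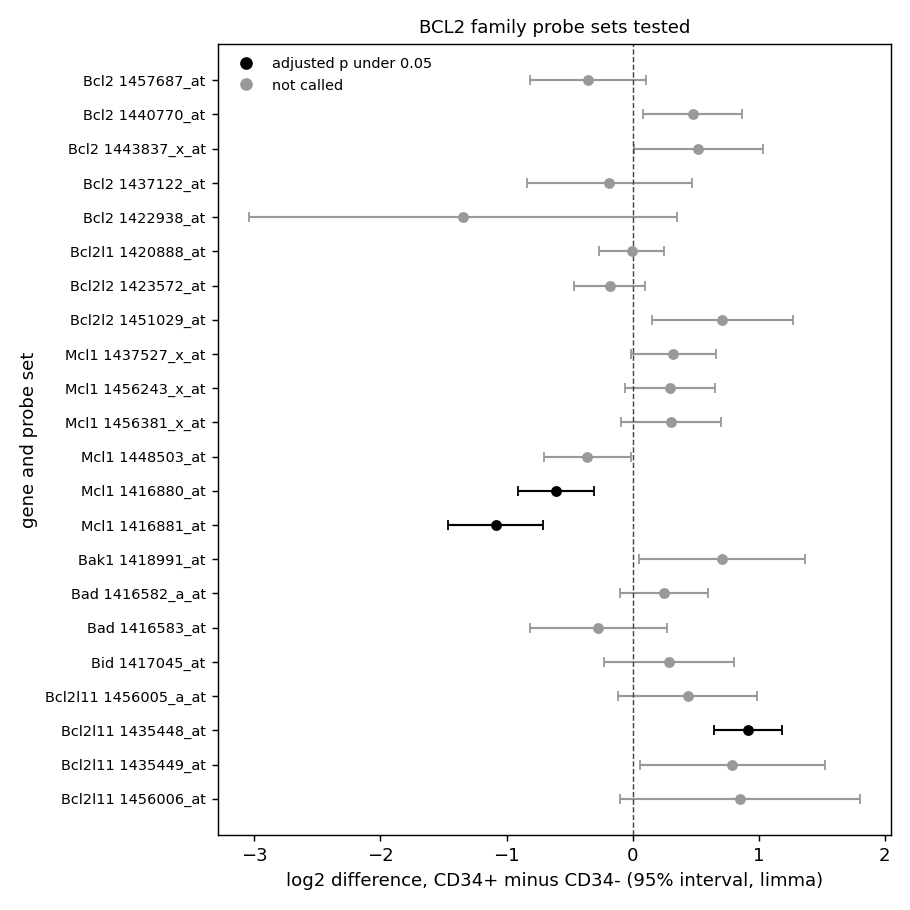
Log2 difference in signal, CD34+ minus CD34- (horizontal axis), of the 22 tested BCL2 family probe sets (rows), with 95% limma intervals. Black points were called at an adjusted p under 0.05: Bcl2l11 1435448_at at 0.92, and Mcl1 1416880_at and 1416881_at at -0.61 and -1.09. Grey points were not called.

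Signals of cell type markers in the fractions were read from the marker lists, where 1 probe set, the brightest, stood for each gene. These are sums over bulk RNA and do not measure the purity of a fraction. All 7 bulge genes (Cd34, Lgr5, Lhx2, Sox9, Tbx1, Nfatc1, Wif1) were called higher in CD34+ cells. Their summed signal lay between 12.97 and 14.72 on CD34+ arrays and between 11.31 and 11.56 on CD34- arrays. Cd34 encodes the antigen used for the sort, so its call follows from the sort, and its signal is part of that sum. Cd34 and Lhx2 were dim in CD34- cells, so their CD34+ signals helped them past the filter. T cell markers were lower, with 5 of 7 called and 2 too dim to test, and a summed signal of 9.11 to 11.36 on CD34+ arrays against 11.70 to 12.66 on CD34- arrays. The brightest of these were Ptprc (difference -1.81) and Thy1 (-1.20). Of 6 fibroblast markers 3 were called higher and 3 were too dim to test. The sums were 11.59 to 13.09 on CD34+ arrays against 8.93 to 9.74 on CD34- arrays, led in brightness by Col1a2 (3.49) and Dcn (1.53). Col1a2 alone read 11.09 to 12.59 on CD34+ arrays, so it made up most of that sum. The third, Pdgfra, averaged 6.54 in CD34- cells, so its CD34+ signals (8.13) helped it past the filter. The dim markers averaged 4.79 against 4.48 (Lum), 6.08 against 5.10 (Col1a1) and 8.42 against 4.25 (Col3a1). Of 12 myeloid and antigen presenting markers 5 were called higher, at 12.77 to 14.15 against 12.24 to 12.99, with H2-Aa (0.95, called) and H2-Eb1 (0.39, adjusted p = 0.43) the brightest. The only smooth muscle marker of 5 bright enough to test was called higher, that of Acta2 (2.05), with Des next in brightness (1.19, not tested), and the sums were 8.82 to 12.07 against 8.11 to 8.85. None of the 5 melanocyte markers was called, with Dct (-0.50) and Tyrp1 (-0.87) the brightest and sums of 12.07 to 12.47 against 11.79 to 14.46. The sums were 14.30 and 14.46 on CD34- arrays 1 and 2 and 11.79 to 12.36 on the other CD34- arrays. The 5 endothelial markers, Kdr and Cldn5 the brightest, were all too dim to test, at 7.72 to 8.83 against 7.30 to 7.88. The keratinocyte sums overlapped, at 17.12 to 17.75 against 17.11 to 17.49, with 1 of 7 markers called higher and 2 lower. The brightest of these were Krt15 (0.47, called) and Perp (0.40, limma adjusted p = 0.0696). The 2 called lower, named after their values were seen, were Itga6 (-0.53) and Trp63 (-0.38).

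The actin 3-prime to 5-prime ratio, a log2 measure that rises as RNA or its labelled copies get shorter, averaged 3.95 ± 0.99 in CD34+ cells (SD, n = 5) and 2.43 ± 0.19 in CD34- cells (SD, n = 6), without overlap. On CD34+ arrays 1 to 5 it was 5.25, 4.56, 3.97, 2.91 and 3.06. The part of other cell types and of RNA length in the differences below was not tested. When this ratio was added to the fit, the share of called probe sets over the whole table was 0.711%, and none of the 22 family probe sets was called (lowest limma adjusted p = 0.0688). Because the ratio does not overlap between the fractions, this fit cannot tell fraction and RNA length apart, and a lost call measures neither. In bulk samples, fewer cells of a type and less RNA per cell cannot be told apart.

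Mcl1, whose protein is short-lived and is needed by many cell types, was read by 6 probe sets, and these split into opposite directions. The probe set 1416881_at had log2 signals of 9.46, 9.22, 9.07, 8.89 and 9.35 on the CD34+ arrays, against 9.70 at the lowest, a median of 10.44 and 10.56 at the highest on CD34- arrays. Every CD34+ array was below every CD34- array. It averaged 9.20 ± 0.22 (SD, n = 5) in CD34+ cells and 10.29 ± 0.34 (SD, n = 6) in CD34- cells, a difference of -1.09 (SE 0.18, limma adjusted p = 0.00129), or a 2.12-fold lower signal.

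A second Mcl1 probe set, 1416880_at, fell as well. Its signals were 11.84, 12.24, 12.49, 12.30 and 12.18 on CD34+ arrays, against a lowest of 12.54, a median of 12.86 and a highest of 13.05 on CD34- arrays. The fractions again did not overlap, although only 0.05 parted CD34+ array 3 from the lowest CD34- array. The difference was -0.61 (SE 0.14, limma adjusted p = 0.0091), or 1.53-fold lower. The probe set 1448503_at, annotated to the same transcript record as both, read 12.69, 12.52, 12.18, 12.71 and 12.77 in CD34+ cells and 12.57 to 13.51, with a median of 12.89, in CD34- cells. It overlapped between the fractions and was not called (-0.36, SE 0.16, limma adjusted p = 0.123).

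The other 3 Mcl1 probe sets, 1437527_x_at, 1456243_x_at and 1456381_x_at, pointed the other way and were not called. The ending _x_at marks probe sets in which some probes can also match other transcripts. The brightest, 1437527_x_at, had 14.73, 14.26, 14.52, 13.89 and 14.11 on CD34+ arrays, against 13.63 to 14.31 with a median of 13.98 on CD34- arrays. CD34+ arrays 1 and 3 were above all CD34- arrays and the other CD34+ arrays lay among them. The differences of the 3 were 0.32, 0.30 and 0.31, with limma adjusted p of 0.154, 0.214 and 0.245. All of them ordered the CD34+ arrays alike, with array 1 highest, then 3, 2, 5 and 4. Arrays 1, 2 and 3 also had the highest actin ratios. Among CD34- arrays, array 6 had the highest ratio (2.76) and the lowest signal of 1437527_x_at (13.63). With the actin ratio in the fit, which cannot tell fraction and RNA length apart, the 3 differences were -0.033, -0.11 and -0.21. In that fit 1416881_at differed by -1.23 (limma adjusted p = 0.0688) and 1416880_at by -0.37 (limma adjusted p = 0.486). The part of RNA length in any of these was not tested.

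Within each array the signal of 1437527_x_at exceeded that of 1416881_at by 4.76 to 5.45 in CD34+ cells and by 3.37 to 4.33 in CD34- cells. The size of this gap mixes the probes of both sets and has no meaning of its own. Its change between the fractions, 1.41, is not altered by shifting all log2 values of an array alike, as scaling to equal medians does. Quantile normalization is not such a shift, and after it the differences of 1437527_x_at and 1416881_at were 0.13 and -1.09. The pair was picked for its opposite differences, so the change restates them, and no test is given.

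**Figure D2:**
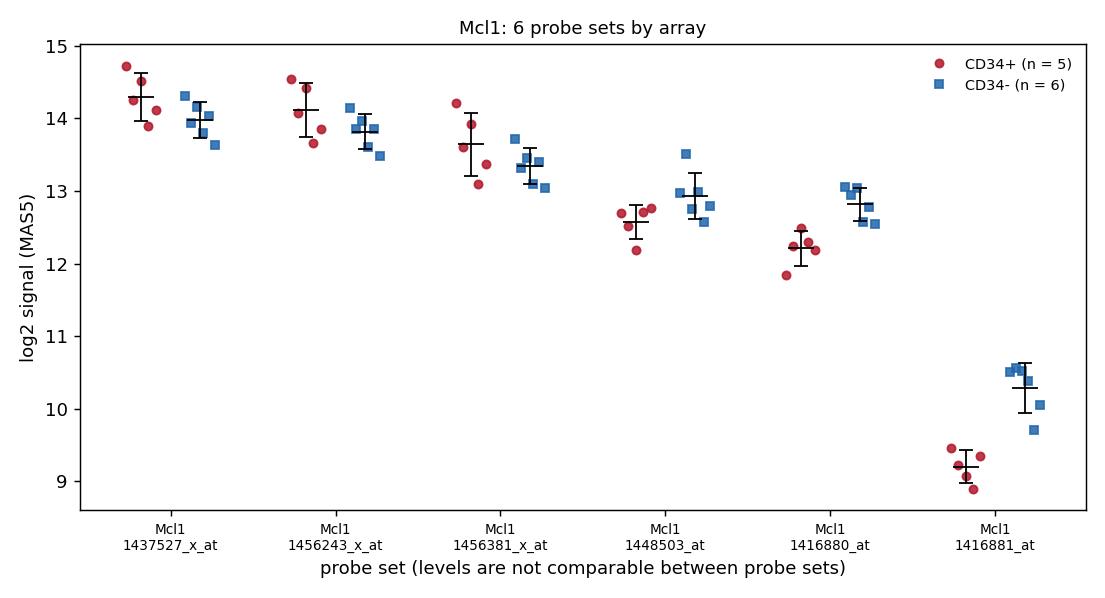
Log2 MAS5 signal (vertical axis) of the 6 Mcl1 probe sets on each array, CD34+ in red circles and CD34- in blue squares, with the mean and SD in black. CD34+ arrays lie below all CD34- arrays for 1416880_at and 1416881_at, and the fractions overlap for the other 4 probe sets.

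Bcl2, the founding survival gene of the family and a gene also used by lymphocytes, was read by 5 probe sets, none of which was called. The brightest, 1457687_at, had 9.13, 9.78, 8.72, 8.48 and 8.92 on CD34+ arrays, against 9.06 to 9.79 with a median of 9.26 on CD34- arrays. CD34+ arrays 3, 4 and 5 were below all CD34- arrays, and arrays 1 and 2 were not. The difference was -0.35 (SE 0.22, 95% interval -0.82 to 0.11, limma adjusted p = 0.25). Without CD34+ arrays 1 and 2, which had the highest actin ratios, it was -0.66 and was called (limma adjusted p = 0.0297). As these were also the CD34+ arrays not below all CD34- arrays, leaving them out could only lower the difference. T cell markers were lower in CD34+ cells too, and their part in the Bcl2 values was not tested.

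Another Bcl2 probe set, 1440770_at, leaned the opposite way, with 9.21, 9.70, 9.49, 8.99 and 9.03 in CD34+ cells and 8.36 to 9.10 with a median of 8.87 in CD34- cells. The difference of 0.48 (SE 0.18, limma adjusted p = 0.0761) missed the threshold. The x_at probe set 1443837_x_at differed by 0.52 (SE 0.24, limma adjusted p = 0.13), with 7.52 to 8.56 in CD34+ cells against 7.13 to 7.98 in CD34- cells. A dimmer set, 1437122_at, differed by -0.18 (SE 0.31, limma adjusted p = 0.694) and turned to 0.092 without CD34+ array 1. The dimmest, 1422938_at, had 3.31, 7.70, 2.84, 7.20 and 6.76 on CD34+ arrays, against 6.16 to 7.60 on CD34- arrays. Its difference of -1.35 (SE 0.79, limma adjusted p = 0.235) was led by CD34+ arrays 1 and 3, which lay far below every CD34- array. CD34+ arrays 4 and 5 lay within the CD34- range and array 2 just above it. With the actin ratio in the fit the difference was 0.14. The averages of 1422938_at were 5.56 in CD34+ and 6.91 in CD34- cells, so its CD34- signals helped it past the brightness filter.

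By the rule set for likeness, the genes whose brightest probe set followed the brightest Bcl2 probe set most closely over the 11 arrays were Tcaim (Pearson r = 0.91), Rfwd3 (r = 0.88) and Tmf1 (r = 0.87). These are the highest of 10915 correlations over arrays that share the same scaling, and they describe these arrays only. All 3 had small differences between the fractions themselves, of -0.13, -0.18 and -0.15.

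Bcl2l1, whose longer protein BCL-XL protects keratinocytes of the epidermis, had the smallest standard error of the 22 tested probe sets. Its bright probe set 1420888_at read 10.46, 10.44, 10.43, 10.05 and 10.37 on CD34+ arrays, against 10.20 to 10.52 with a median of 10.34 on CD34- arrays. The arrays of the fractions overlapped, and CD34+ array 4 was the lowest of all 11. The difference was -0.0059 (SE 0.12, limma adjusted p = 0.978), with a 95% interval of -0.26 to 0.25. The other 3 Bcl2l1 probe sets were too dim to test. The signals of 1420887_a_at were 3.14 to 5.65 in CD34+ cells and 3.30 to 6.26 in CD34- cells. Those of 1426191_a_at were 2.10 to 5.09 in CD34+ cells and 1.86 to 5.15 in CD34- cells, and those of 1426050_at were 2.77 to 4.14 in CD34+ cells and 0.91 to 3.24 in CD34- cells.

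Bcl2l2, which encodes the survival protein BCL-W, had 2 probe sets bright enough to test. The brighter, 1423572_at, read 10.45, 9.90, 10.02, 10.40 and 10.34 in CD34+ cells and 10.24 to 10.49 with a median of 10.43 in CD34- cells. CD34+ arrays 2 and 3 were lower than every CD34- array and the rest were within their range. The difference was -0.18 (SE 0.13, 95% interval -0.46 to 0.10, limma adjusted p = 0.337). The dimmer, 1451029_at, had 8.18, 7.59, 7.07, 6.98 and 7.38 in CD34+ cells, against 6.37 to 7.10 with a median of 6.70 in CD34- cells. Its difference of 0.71 (SE 0.26, limma adjusted p = 0.0651) missed the threshold. It passed in 3 of 22 alternatives, with limma adjusted p of 0.0459 without the intensity trend and 0.0494 without CD34+ array 4. The other was with dim values raised to the 40th percentile of each array (0.043). The difference was 0.32 after quantile normalization, 0.23 with equal medians and 0.16 at the lowest, none of them called. The remaining 2 probe sets were too dim to test, with 3.90 to 6.04 in CD34+ cells and 1.75 to 5.45 in CD34- cells for 1430454_x_at. For 1430453_a_at the signals were 2.51 to 6.44 in CD34+ cells and 1.75 to 5.78 in CD34- cells.

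**Figure D3:**
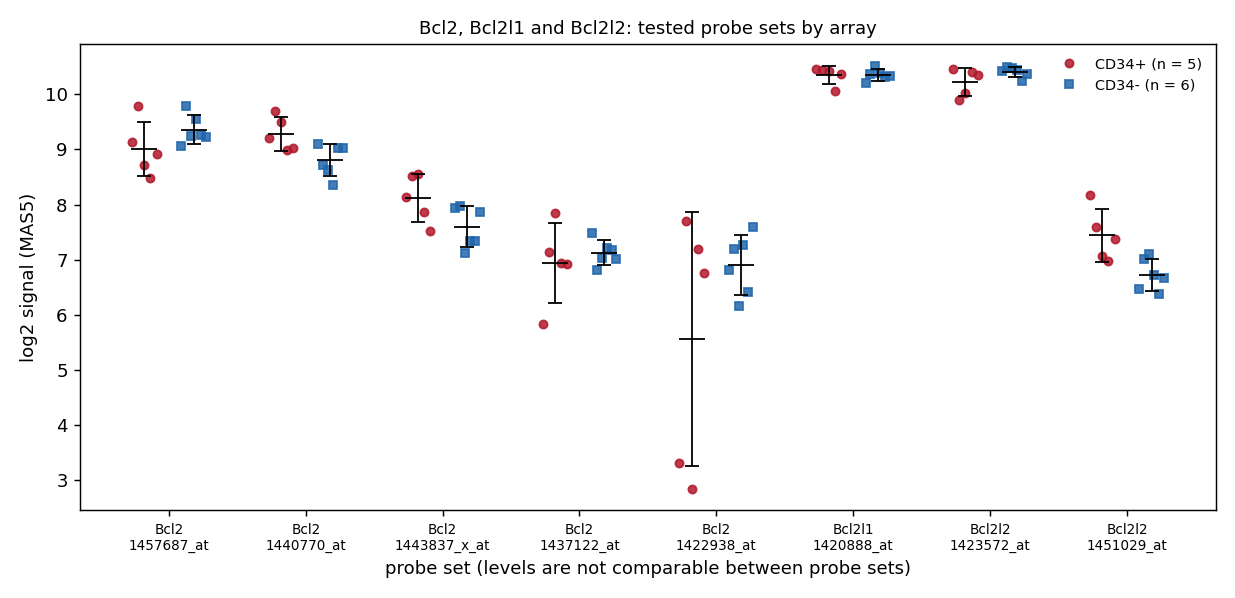
Log2 MAS5 signal (vertical axis) of the tested probe sets of Bcl2, Bcl2l1 and Bcl2l2 on each array, CD34+ in red circles and CD34- in blue squares, with the mean and SD in black. The fractions overlap for all 8 probe sets, and CD34+ arrays 1 and 3 lie apart at 3.31 and 2.84 for Bcl2 1422938_at.

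Among the effectors only Bak1 could be read, and it was dim. Its probe set 1418991_at had 7.0, 7.35, 6.41, 6.68 and 6.30 on CD34+ arrays, against 5.36 to 6.45 with a median of 6.06 on CD34- arrays. CD34+ arrays 1, 2 and 4 were above all CD34- arrays and arrays 3 and 5 were not. The difference of 0.71 (SE 0.31, 95% interval 0.05 to 1.37, limma adjusted p = 0.11) was not called. It was 0.22 after quantile normalization and 0.23 with equal medians. The other Bak1 probe set, 1425716_s_at, was not tested, and lay between 3.08 and 5.51 in CD34+ cells and between 1.84 and 6.03 in CD34- cells.

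Bcl2l11 encodes BIM, a BH3-only protein that binds all of the survival proteins. It was the member with a called rise, on the probe set 1435448_at. This read 10.76, 10.35, 10.35, 10.61 and 10.41 on CD34+ arrays, against 9.44 to 9.72 with a median of 9.61 on CD34- arrays. Every CD34+ array was above every CD34- array, with a gap of more than either group's SD. It averaged 10.50 ± 0.18 (SD, n = 5) in CD34+ cells and 9.58 ± 0.12 (SD, n = 6) in CD34- cells, a difference of 0.92 (SE 0.13, 95% interval 0.65 to 1.19, limma adjusted p = 4.23e-04), or 1.89-fold higher. With the actin ratio in the fit it was 0.85 (limma adjusted p = 0.0742).

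The other 4 Bcl2l11 probe sets had positive differences and overlapped between the fractions. The brightest, 1456005_a_at, which can match several transcripts of the gene, had 10.33, 10.02, 10.68, 11.55 and 10.81 in CD34+ cells and 9.73 to 10.85 with a median of 10.25 in CD34- cells. CD34+ array 4 alone was above all CD34- arrays, and the difference was 0.44 (SE 0.26, limma adjusted p = 0.234). The probe sets 1435449_at and 1456006_at differed by 0.79 (SE 0.34, limma adjusted p = 0.111) and 0.85 (SE 0.45, limma adjusted p = 0.182). Both were dimmer, and dim signals were higher in CD34+ cells over the whole table. After quantile normalization their differences were 0.34 and 0.40. The averages of 1456006_at were 6.61 in CD34+ and 5.76 in CD34- cells, so its CD34+ signals helped it past the brightness filter. The dimmest, 1426334_a_at, was not tested, and its values were 2.66 to 5.71 in CD34+ cells and 1.93 to 5.49 in CD34- cells. The 5 sets share a gene and are not replicates of each other.

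**Figure D4:**
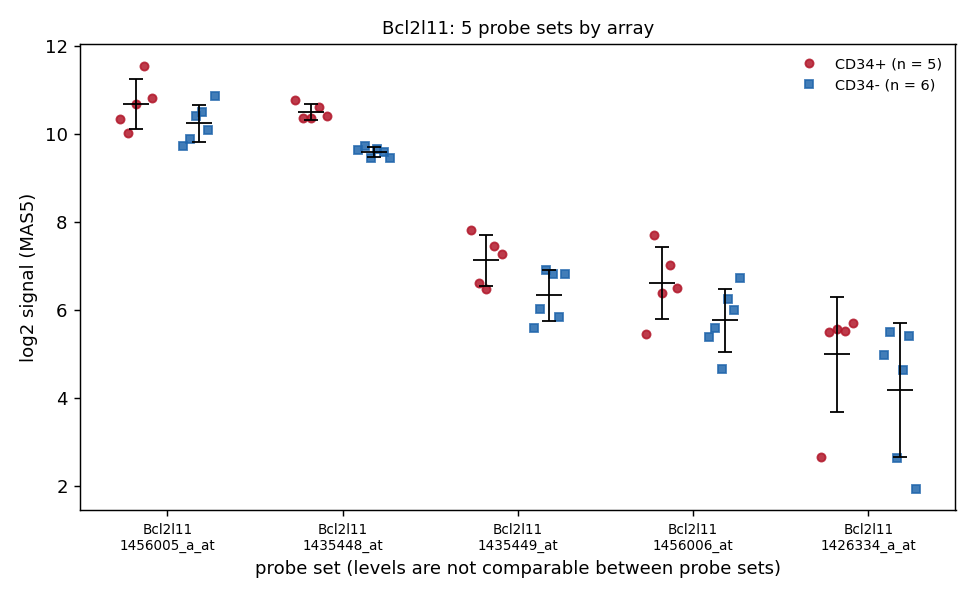
Log2 MAS5 signal (vertical axis) of the 5 Bcl2l11 probe sets on each array, CD34+ in red circles and CD34- in blue squares, with the mean and SD in black. For 1435448_at all CD34+ arrays lie at 10.35 or above and all CD34- arrays at 9.72 or below. The other 4 probe sets overlap.

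Bad, the BH3-only gene whose protein Akt phosphorylates, gave 2 tested probe sets with differences of opposite sign. The brighter, 1416582_a_at, had 10.45, 10.43, 9.61, 10.26 and 10.47 in CD34+ cells and 9.88 to 10.27 with a median of 9.95 in CD34- cells. CD34+ arrays 1, 2 and 5 were above all CD34- arrays, while array 3 was the lowest of all. The difference was 0.25 (SE 0.16, 95% interval -0.10 to 0.60, limma adjusted p = 0.285). Without CD34+ array 3 it was 0.41 and was called (limma adjusted p = 0.0355), but leaving out the lowest array could only raise it. The second, 1416583_at, had 7.77 to 8.60 in CD34+ cells and 7.68 to 8.97 in CD34- cells, with a difference of -0.27 (SE 0.25, limma adjusted p = 0.462).

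Bid, which links death receptors to mitochondria once caspase-8 has cut its protein, was bright enough on 1417045_at. The signals were 7.91, 7.29, 7.27, 7.65 and 7.80 in CD34+ cells and 6.49 to 7.74 with a median of 7.38 in CD34- cells. The difference was 0.29 (SE 0.24, limma adjusted p = 0.403), and the fractions overlapped. The other 2 Bid probe sets were not tested, and 1447873_x_at ranged from 5.61 to 7.60 in CD34+ cells and from 2.10 to 5.88 in CD34- cells. The dimmer, 1448560_at, ranged from 1.94 to 4.95 in CD34+ cells and from 1.51 to 4.51 in CD34- cells.

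Bik, a BH3-only gene whose protein sits mainly in the endoplasmic reticulum, was dim on all 3 of its probe sets and was not tested. The brightest, 1420362_a_at, had 6.76, 7.17, 6.24, 5.52 and 6.01 in CD34+ cells and 4.77 to 5.99 with a median of 5.56 in CD34- cells. CD34+ arrays 1, 2, 3 and 5 were above all CD34- arrays. The other 2 overlapped, with 4.58 to 6.60 in CD34+ cells and 3.94 to 7.07 in CD34- cells for 1449836_x_at, and 3.41 to 5.65 in CD34+ cells and 2.55 to 5.67 in CD34- cells for 1420363_at. Over all 12 untested probe sets of the family, 9 had a higher and 3 a lower mean in CD34+ cells, at signals from 0.91 to 7.60. Dim signals were higher in CD34+ cells over the whole table, where the 40th percentile of an array was 6.04 to 6.66 on CD34+ arrays and 5.63 to 5.86 on CD34- arrays.

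**Figure D5:**
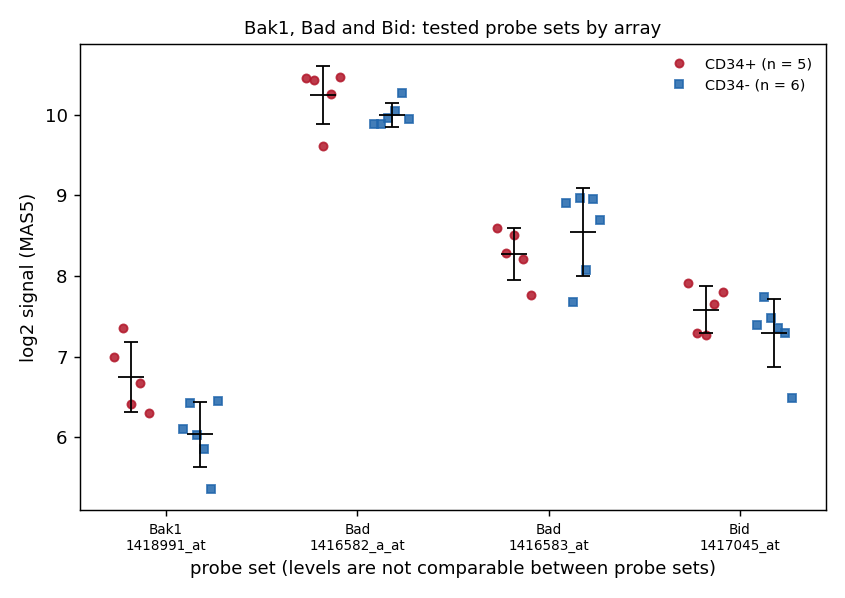
Log2 MAS5 signal (vertical axis) of the tested probe sets of Bak1, Bad and Bid on each array, CD34+ in red circles and CD34- in blue squares, with the mean and SD in black. The fractions overlap for all 4 probe sets.

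With 1 probe set for each gene, the brightest, 7 of the 9 member genes passed the filter and none was called by limma, nor had any an unadjusted p under 0.05, against 24.7% called and 39.3% at that unadjusted p of 10916 genes. The called probe sets of Mcl1 and Bcl2l11 are not the brightest of their genes and so do not enter that fit.

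The rest of the pathway was followed by gene in 5 lists of 80 genes, of which 65 were tested. In CD34+ cells 4 of these rose and 12 fell, which together is 24.6%, with a median difference of -0.06. The background of the same fit was 12.4% higher and 12.3% lower, and its median difference was 0.00. With the actin ratio in the fit none of the 65 was called, against 1.15% of all genes, and without CD34+ arrays 1 and 2 the counts were 2 higher and 8 lower, which is 15.4%, against 16.7% of all genes.

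Of 12 further BCL2 family genes 3 fell and none rose (median -0.19). Bcl2l13, a mitochondrial relative, differed by -0.73 (SE 0.16) with -1.04 on its other tested probe set, also called, and Bnip3, a mitochondrial protein gene induced by low oxygen, by -0.63 (SE 0.14), both without overlap between the fractions. Bnipl (-0.47, SE 0.16), named after its values were seen, was the other. In the list of the apoptosome and caspases 1 of 12 rose and 2 fell (median 0.05). Cycs, the gene of cytochrome c, rose by 0.66 (SE 0.19), but its other tested probe sets were not called (0.42 and -0.056) and its call was lost without CD34- array 6. Dffa, an inhibitor and chaperone of the nuclease that cuts DNA in apoptosis, fell by 1.10 on the log2 scale (SE 0.21), with -0.14 on its other tested probe set, which was not called. Casp2 fell by 1.02 on the log2 scale (SE 0.18).

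Of 5 caspase inhibitor genes 1 rose, Birc6 (0.60, SE 0.16), with 4 other probe sets between -0.23 and 1.16 that were not called, and none fell (median -0.10). That call was lost without CD34+ arrays 1 and 2 (limma adjusted p = 0.0674). Among 9 death receptor genes 2 fell and none rose (median -0.20). These were the receptor gene Tnfrsf21 (-0.69, SE 0.16) and the adaptor gene Traf2 (-0.53, SE 0.17). The other tested Tnfrsf21 probe set gave -0.94 and was not called (limma adjusted p = 0.0667). The Traf2 call was lost in 6 of 11 fits without 1 array (CD34+ 2 and 4, CD34- 2, 4, 5 and 6), with a highest limma adjusted p of 0.0729.

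Among 27 genes whose products act on BCL2 family proteins 2 rose and 5 fell (median -0.09). Akt2 fell by 0.76 on the log2 scale (SE 0.13), although its other tested probe sets gave -0.17 and 0.13 and were not called. Vdac2, an outer membrane channel that binds BAK, fell by 0.59 on the log2 scale (SE 0.12). The other 3, named after their values were seen, were the BCL2-binding co-chaperone gene Bag3 (-0.57) and the 14-3-3 genes Ywhae (-0.41) and Ywhah (-0.44). The 14-3-3 gene Ywhab (0.34, SE 0.10) and Tpt1 (0.63, SE 0.19), whose product binds MCL-1, were called higher, and both calls were lost without CD34+ arrays 1 and 2. The Ywhab call was also lost without CD34+ array 2 or CD34- array 4 (highest limma adjusted p = 0.053). That of Tpt1 was also lost without CD34+ array 2 or 3 or CD34- array 4, 5 or 6 (highest limma adjusted p = 0.0645). Of 5 further Ywhab probe sets 2 were called higher (0.29 and 2.05) and 1 lower (-0.37, limma adjusted p = 0.0374). Ywhab turned to -0.14 after giving all arrays equal medians, and Tpt1 to -0.048 with the actin ratio in the fit.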

How the data were processed

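Total RNA of magnetically sorted keratinocytes was measured on single-channel Affymetrix arrays, 5 of CD34+ and 6 of CD34- cells, grouped by the sample titles. The authors deposited 1 log2 value per probe set and array, computed by MAS5, per the submitters' processing notes, whose version was not given in the sources. The trimmed mean of linear signal (2% off each end) was 500.002 to 500.004 on every array, so values were used as deposited. No detection calls were used, so low values were read as dim. The number of arrays limits the precision.

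Probe sets were named by the platform annotation, with symbols updated through gene IDs to GRCm38.p6 (34741 of 34945 with 1 symbol matched). 932 with several symbols, 9160 with none and 64 controls were left out. Each probe set was fitted with limma 3.58.1 (R 4.3.3) with an intensity trend and Benjamini-Hochberg adjustment, leaving out the dimmest 40% by mean over all arrays. The fit by gene took the brightest probe set and filtered genes likewise. The limma step was tested on simulated data, where it recovered 6 of 50 changes of 1.5-fold, 29 of 50 of 2-fold and 48 of 50 of 4-fold. An uncalled difference therefore does not show equal levels. No replicates were merged, since no pair of arrays correlated above 0.931. Replicate numbers were not used as pairs in the main fit, since the titles do not say whether same-numbered arrays belong together. Deviations of same-numbered arrays correlated at 0.02 to 0.18, which does not exclude a pairing.

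Named are all members with every probe set, the 2 called genes with the smallest p in each direction of each pathway list, the 2 brightest of each marker list, and the 3 genes most like Bcl2. Members and lists were chosen with earlier results of these data known. Promoter windows are from RefSeq (GRCm38.p6), where 8 of 9 measured members matched. Alternatives changed the scaling between arrays, the filter, dim values, moderation, array weights, the actin covariate, the test, the replicate block and the arrays used.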

Additional observations from a re-analysis of the deposited data

Results flagged for a closer look

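Single arrays stood apart from the rest of their group for 4 of the 34 family probe sets, by the gap of the extreme array to its neighbour as a share of the group's range. With 68 groups examined, chance alone flags about 1 in 20. Bcl2l1 1420888_at was 10.05 on CD34+ array 4, against 10.37 to 10.46 on the other CD34+ arrays. Bad 1416582_a_at was 9.61 on CD34+ array 3, against 10.26 to 10.48 on the others. Bid 1417045_at was 6.49 on CD34- array 6, against 7.29 to 7.74. The dim Bcl2l11 1426334_a_at was 2.66 on CD34+ array 1, against 5.49 to 5.71.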

How the results depend on the processing

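The calls of Mcl1 1416881_at, Mcl1 1416880_at and Bcl2l11 1435448_at held in 22 of 23 alternatives each. They were lost with the actin ratio in the fit, where fraction and RNA length cannot be told apart. Leaving out 1 array at a time gave -1.20 to -1.01, -0.68 to -0.52 and 0.85 to 0.95 for these probe sets. The other alternatives gave -1.57 to -1.07, -1.09 to -0.37 and 0.44 to 0.95. The median of all tested probe sets was 0.02 as reported, -0.09 after quantile normalization and -0.46 with equal medians. Relative to it the 3 differences were -1.0, -0.44 and 1.05 after quantile normalization and -1.11, -0.63 and 0.89 with equal medians.

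The count of called family probe sets, 1 higher and 2 lower, was 2 higher with dim values raised and without the trend, 7 lower with equal medians, 3 lower without CD34+ arrays 1 and 2 (13.7% called over all probe sets), and 0 and 0 with the actin covariate or with the brightest probe set of each gene. Leaving out 1 array gave 1 to 2 higher, 2 of them without CD34+ array 3 (Bad added) or 4 (Bcl2l2 added), and 2 lower. Over all probe sets 42.5% were called with equal medians, 11.7% without a filter and 0.711% with the covariate. By gene, 3 of 7 members were called lower with equal medians (Bcl2, Bcl2l1 and Bcl2l2), where 51.4% of all genes were called. Without CD34+ arrays 1 and 2, Bcl2l11 was called higher (0.77) and Bcl2 lower (-0.66), 1 each way. Leaving out 1 array gave 0 to 1 each way, with Bad called higher without CD34+ array 3 and Bcl2 lower without CD34+ array 2 (-0.55). The pathway lists had 2 higher after quantile normalization and without CD34+ arrays 1 and 2, 0 higher and 36 lower with equal medians (55.4% of 65, against 51.4% of all genes), 0 each way with the covariate (1.15% of all genes), and 2 to 6 higher and 8 to 12 lower on leaving out 1 array (2 higher without CD34- array 4 or 6, 6 higher without CD34+ array 4).

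Directions that turned were all of uncalled differences apart from Ywhab and Tpt1. With equal medians Bcl2 1440770_at was -0.0024, the 3 x_at probe sets of Mcl1 were -0.16, -0.18 and -0.17, Bad 1416582_a_at was -0.23, Bid -0.19, Bcl2l11 1456005_a_at -0.044 and Ywhab -0.14. After quantile normalization Bcl2l1 was 0.062 and Bid -0.083. With the actin covariate Bcl2 1437122_at was 0.31, Bcl2 1422938_at 0.14, the Mcl1 x_at probe sets -0.033, -0.11 and -0.21, and Tpt1 -0.048. Bcl2 1437122_at was 0.12 without CD34+ arrays 1 and 2 and ranged from -0.41 to 0.092 on leaving out 1 array, and Bcl2l1 from -0.036 to 0.070. The cause was not tested.

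With the replicate number as a block, on 10 arrays, 1 family probe set was called higher and 2 lower, and by gene Bcl2l11 was called (0.56), 1 higher. None of the 5 CD34+ arrays correlated best with the CD34- array of its own number. The planned difference of Bcl2 and Bax within arrays was not run, since Bax was not analysed here.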
